A study of Mus musculus with 37 samples.

Results

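The genes described here are 10 immediate early transcription factors of the mouse mammary gland, Egr1, Egr2, Egr3, Fos, Fosb, Jun, Junb, Atf3, Ier2 and Nr4a1. They are 10 of the 19937 genes that a probe set with exactly 1 gene symbol represents on the array. Each was found by its symbol, each had 1 probe set, and all 10 passed the filter on dim genes on 37 of 37 arrays. With 1 probe set each, no measured value was needed to pick the probe set of a member. The members, and Egr2 as the gene set against the other 9, were however chosen with earlier results of these data known.

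Total RNA of whole mammary glands was hybridised to 37 Affymetrix whole-transcript arrays, and the question, per the series title, is what loss of PTP1B does to mammary development. PTP1B is a tyrosine phosphatase encoded by Ptpn1, and all mice were of the FVB strain, either PTP1B WT (+/+) or PTP1B knockout (KO, -/-), the mutant allele having been backcrossed for at least 7 generations. No mouse was treated. Nulliparous females were taken in estrus (P0), and the others at day 3, 7, 10 or 15 of pregnancy (P3, P7, P10 and P15) after mating at 12 weeks of age. From P0 to P15 there were 4, 3, 4, 3 and 4 WT arrays, and 4, 3, 5, 3 and 4 KO arrays. PTP1B-/- removes the phosphatase from every cell type of the animal, and the growth protocol describes collection up to day 10 without naming day 15.

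Immediate early genes are transcribed within minutes of a stimulus, without new protein synthesis, when growth factors, hormones or stress activate kinases such as ERK. ERK phosphorylates Elk factors that sit with SRF on the CArG box of the serum response element, while CREB acts through the cAMP response element. The encoded proteins include the EGR zinc finger factors, the FOS and JUN proteins that pair to form AP-1, the stress-induced ATF3 and the orphan nuclear receptor NR4A1.

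The median log2 intensity of an array was 6.52 to 6.79, and 16865 genes were tested. Ptpn1, the targeted gene, was at 8.66 ± 0.29 (SD, n = 18) in WT arrays and at 5.79 ± 0.30 (SD, n = 18) in KO arrays other than the array labelled KO P15 replicate 3, where it was 8.68, inside the WT range of 7.90 to 9.06. Called results of the members that use KO P15 are therefore given with and without that array. Counts of cell type markers and shares of all genes include it. Another 6 arrays stood apart by markers of other cell types. WT P0 replicate 4, KO P3 replicate 1 and KO P7 replicate 3 had skeletal muscle scores of 5.10, 5.50 and 2.36 (mean log2 level of the markers, centred over all arrays), and WT P7 replicate 1 and KO P10 replicates 2 and 3 had lymphocyte scores of 0.95, 3.64 and 3.61. These 7 are called the arrays in doubt below. Without them 1 array remains in KO P10, 2 in KO P3 and 3 or 4 in each other group, so that KO P10 then has no spread of its own and is assumed to vary like the other groups. In whole glands a lower level can come from fewer cells of a type or from less RNA per cell, and these cannot be told apart. Nothing in the labels says that replicates were separate animals, so p-values measure the spread between these samples.

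Differences are on the log2 scale, KO minus WT or pregnancy day minus P0, with the SE of the fit, and a gene is called, or said to have risen or fallen, where its limma adjusted p over all 16865 genes was below 0.05.

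The promoters of Egr2, Fos and Jun are shown because these are the member with the widest range over the groups, the member called most often against P0 and the member with the smallest adjusted p at P15. Each is the 250 bases before a start site annotated by RefSeq on GRCm38.p6, written on the strand of the gene. Capitals mark a CArG box or the core of the cAMP response element, TGACG, on either strand (on the opposite strand it reads as its reverse complement). Egr2 has 5 annotated starts, and the first whose window holds both was chosen for display, whereas Fos and Jun have 1 start each. Egr2 lies at chr10:67537619-67537868 on the plus strand, Fos at chr12:85473640-85473889 on the plus strand and Jun at chr4:95052223-95052472 on the minus strand.
Egr2: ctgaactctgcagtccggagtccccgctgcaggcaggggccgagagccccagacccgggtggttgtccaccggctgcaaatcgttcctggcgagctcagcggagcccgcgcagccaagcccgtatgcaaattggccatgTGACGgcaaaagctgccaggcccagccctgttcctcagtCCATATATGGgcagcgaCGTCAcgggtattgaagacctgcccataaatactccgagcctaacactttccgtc
Fos: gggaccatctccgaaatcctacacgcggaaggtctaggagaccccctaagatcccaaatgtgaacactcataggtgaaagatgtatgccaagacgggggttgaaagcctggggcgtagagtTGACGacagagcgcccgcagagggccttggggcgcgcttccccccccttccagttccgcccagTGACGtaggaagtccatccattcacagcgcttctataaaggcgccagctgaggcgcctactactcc
Jun: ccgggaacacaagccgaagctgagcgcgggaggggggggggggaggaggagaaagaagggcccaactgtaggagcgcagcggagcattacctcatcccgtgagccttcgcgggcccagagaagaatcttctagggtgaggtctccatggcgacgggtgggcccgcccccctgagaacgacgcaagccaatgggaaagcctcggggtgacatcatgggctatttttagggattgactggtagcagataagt

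Of the 10 members 7 had a promoter in the RefSeq table (Atf3, Egr2, Fos, Fosb, Jun, Junb and Nr4a1), each window reaching from 250 bases before to 50 bases after a start. Both strands were searched. Counted by gene, with a match in any window of the gene, a CArG box was found for 1 of the 7 members, Egr2, against 1.81% of the 27025 genes in the table. In the Egr2 window shown above it begins at base -72 from the start, between TGACG cores at -111 and -55. Egr2 has 5 annotated starts whose windows partly overlap, and 4 of the windows hold a CArG box. TGACG was found for 6 of 7 members, all but Jun, against 23.0% of genes. The AP-1 letters TGACTCA were found for 0 of 7 members, against 5.95% of genes, and the EGR letters GCGNGGGCG for 2 of 7, Fosb and Nr4a1, against 6.27%. Egr2 had 5 windows in which a match could fall, and each other matched member had 1. These are letter matches in 300 bases, so a site farther from the start, in Fos for example, is not seen. No binding was measured.

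Egr1 and Egr2 differed between genotypes before pregnancy, and Egr3 was not called. Egr2, also known as Krox20, a zinc finger factor best known from hindbrain patterning and Schwann cell myelination, was 3.00 times as high in KO as in WT glands at P0, and Egr1, its most widely expressed relative, 1.96 times. Both rose in WT glands at P3, and from P3 on Egr2 had a lower mean in KO than in WT at every stage.

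Egr2 read 7.63, 7.84, 8.45 and 7.35 in the 4 WT arrays at P0, and 9.16, 9.63, 8.73 and 10.08 in the 4 KO arrays. Every KO array lay above every WT array. The difference was 1.58 ± 0.27 (limma adjusted p = 0.00211), the 11th highest of the 16865 genes tested. It stayed between 1.36 and 1.81 with each array of the series left out in turn, with a largest adjusted p of 0.017 in limma. A fit of the WT and KO arrays at P0 alone, with 4 against 4, gave the same difference with a limma adjusted p of 0.28.

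Egr1 read 7.37, 7.99, 8.22 and 7.77 in WT arrays at P0 and 8.34, 9.09, 8.50 and 9.33 in KO arrays, again without overlap. Its difference of 0.97 ± 0.22 was called (limma adjusted p = 0.023). This call was lost without WT P0 replicate 1 (0.82, limma adjusted p = 0.0976), WT P0 replicate 4 (0.95, 0.069), KO P0 replicate 2 (0.88, 0.0782) or KO P0 replicate 4 (0.80, 0.0705). Egr3, the family member known from T cell anergy and muscle spindles, read 7.33, 7.22, 7.58 and 7.45 in WT and 7.53, 7.74, 7.40 and 7.37 in KO arrays at P0, so that its groups overlapped, and its difference of 0.12 ± 0.14 was not called (limma adjusted p = 0.657).

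At P0 2 of the 10 members were called, both higher in KO, where 1.70% of all tested genes were called and 1.27% were called higher. Among the other 8 the differences ran from -0.28 (Nr4a1) to 0.22 (Fos). The member median was 0.11, against -0.01 over all genes. Of members whose WT and KO arrays did not overlap there were also 2, against 8.04% of all genes.

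**Figure D1:**
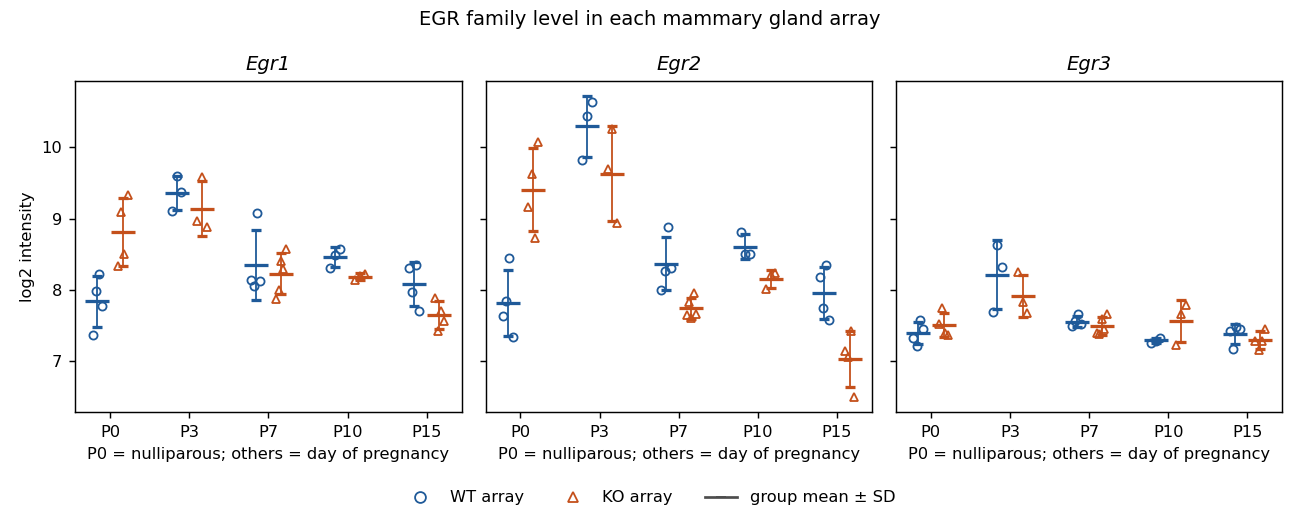
log2 intensity of Egr1, Egr2 and Egr3 in each array (y) by stage (x), with circles for WT and triangles for KO arrays, and bars for the group mean ± SD. For Egr2 the 4 KO arrays at P0 (8.73 to 10.08) lie above the 4 WT arrays (7.35 to 8.45), both genotypes are high at P3, and KO lies below WT at P7, P10 and P15.

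At P0 all epithelial, macrophage and fibroblast markers had a higher mean in KO, like Egr1 and Egr2, which was not so in the other marker lists. All 13 epithelial markers had a higher mean in KO, with a median difference of 0.51 and none called, and the epithelial score ran from -0.94 to 0.44 in WT and from -0.33 to 0.36 in KO. All 10 macrophage markers had a higher mean too, with a median of 0.63 and none called, and their score ran from -0.66 to 0.52 in WT and from 0.32 to 0.98 in KO. All 10 fibroblast markers were higher in mean as well, with a median of 0.21, 1 of them called (Pdgfrb, 0.50), and a score of -0.08 to 0.30 in WT and 0.09 to 0.59 in KO. With the epithelial score as a covariate Egr2 differed by 1.55 (limma adjusted p = 0.0119) and Egr1 by 0.81 (0.109, not called). With the macrophage score Egr2 differed by 1.57 (limma adjusted p = 0.00662) and Egr1 by 0.91 (0.0334). Of 6 Schwann cell markers, whose lineage uses Egr2, 3 were higher in KO, with a median difference of -0.02 and none called. In the remaining lists most markers had a lower mean in KO, with none called. A higher mean was found for 0 of 11 skeletal muscle (median -1.71), 0 of 8 endothelial (-0.15) and 1 of 8 white adipocyte markers (-0.11). Among lymphocyte markers it was found for 1 of 8 of B cells (-0.14) and 3 of 9 of T cells (-0.13). Without the arrays in doubt Egr2 differed by 1.43 (limma adjusted p = 0.0274) and Egr1 by 0.95 (0.098, not called).

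During pregnancy the genotype difference of Egr2 had the opposite sign. At P3 the WT arrays read 9.81, 10.43 and 10.63 and the KO arrays 9.69, 10.26 and 8.93, overlapping, with a difference of -0.66 ± 0.31 (limma adjusted p = 0.69). At P7 the WT arrays read 8.001, 8.27, 8.89 and 8.31, and the KO arrays 7.66, 7.83, 7.60, 7.95 and 7.67. All 5 KO arrays lay below the 4 WT arrays, but the difference of -0.62 ± 0.26 was not called (limma adjusted p = 1, unadjusted p = 0.021). At P10 WT read 8.81, 8.51 and 8.51 and KO 8.01, 8.21 and 8.24, again without overlap and not called (-0.45 ± 0.31, limma adjusted p = 0.343).

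Of the 10 members 0 were called by limma at P3, P7 and P10, where 0.119%, 0.00593% and 17.2% of all tested genes were. At an unadjusted p below 0.05 there was 1 member at each, Egr2 at P3 and P7 and Fosb at P10 (0.33 ± 0.16), where 7.10%, 2.63% and 30.8% of all genes passed. Non-overlapping members were Fos at P3, Egr2 at P7, and Egr1 and Egr2 at P10, in each case with KO below WT, that is 1, 1 and 2 of 10 against 8.40%, 1.78% and 25.7% of all genes. For the mean over the 5 stages 0 members were called (2.43% of all genes), with 2 at an unadjusted p below 0.05, Jun (0.13 ± 0.06) and Junb (0.12 ± 0.05), where 17.8% of all genes passed. Egr2 averaged -0.22 ± 0.13 over the stages (limma adjusted p = 0.386).

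At P15 Egr2 was lower in KO glands, whereas the JUN genes were higher. Egr2 read 8.18, 7.74, 8.34 and 7.57 in WT and 7.14, 7.06, 7.43 and 6.498 in KO arrays. All KO arrays lay below all WT arrays, and Egr2 was 1.91-fold lower in KO (-0.93 ± 0.27, limma adjusted p = 0.0232). The call was lost without WT P15 replicate 1 (-0.86, limma adjusted p = 0.0721), WT P15 replicate 3 (-0.80, 0.0861) or KO P15 replicate 4 (-0.75, 0.103). Without the array labelled KO P15 replicate 3 the difference was -1.06 (limma adjusted p = 0.0168).

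Jun, which encodes the main DNA-binding partner in AP-1, read 8.44, 8.55, 8.76 and 8.43 in WT arrays at P15 and 9.30, 9.11, 9.75 and 9.10 in KO arrays. Again no array overlapped, and Jun was 1.70 times as high in KO (0.77 ± 0.13, limma adjusted p = 0.000294). Every leave-one-out fit and every other setting kept this call, and without the array labelled KO P15 replicate 3 the difference was 0.62 (limma adjusted p = 0.00198). Junb, a weaker activator that often acts against Jun, read 7.01, 6.89, 6.90 and 6.80 in WT and 7.23, 7.37, 7.14 and 7.52 in KO. The KO arrays lay above the WT arrays by 0.42 ± 0.11 (limma adjusted p = 0.0101). Junb was at 0.47 without the array labelled KO P15 replicate 3 (limma adjusted p = 0.00709), and its call was lost without KO P15 replicate 4 (0.35, 0.0535).

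Thus 3 of 10 members were called at P15, against 11.1% of all genes, and 4 of 10 did not overlap, against 19.1%. The fourth was Ier2, a small nuclear regulator, at 6.65, 6.64, 6.58 and 6.63 in WT and 6.90, 6.88, 6.91 and 7.04 in KO, with a difference of 0.31 ± 0.12 that was not called (limma adjusted p = 0.094). With a further quantile normalisation it was 0.42 (limma adjusted p = 0.0144) and with each array centred on its median 0.40 (0.0199). Atf3 differed by 0.39 ± 0.17 (limma adjusted p = 0.163), Egr1 by -0.44 ± 0.22 (0.24) and Fos by 0.20 ± 0.16 (0.488), none of them called. Without the array labelled KO P15 replicate 3 Ier2 differed by 0.32, Atf3 by 0.40, Egr1 by -0.45 and Fos by 0.25, again with none called. At this stage all 10 fibroblast markers had a lower mean in KO, 7 of them called (median -0.55). Of 8 white adipocyte markers 7 had a higher mean in KO, 4 of them called (median 0.31). The fibroblast score ran from -0.28 to -0.10 in WT and from -0.92 to -0.65 in KO. The part of these cells in the Egr2, Jun and Junb differences was not tested.

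**Figure D2:**
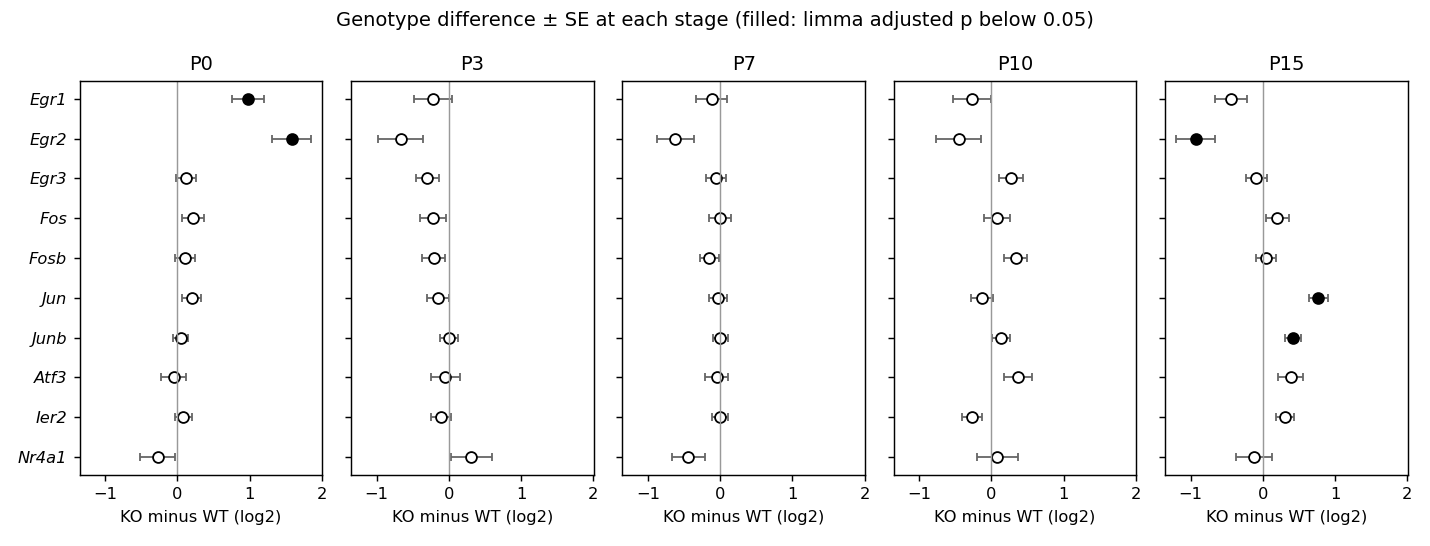
KO minus WT difference (x, log2) ± SE of each of the 10 genes at each stage, with filled points where the limma adjusted p is below 0.05. Egr2 moves from 1.58 at P0 to negative values at P3 to P15, while Jun and Junb stand out at P15 (0.77 and 0.42).

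Whether the genotype difference at P0 differed from that in pregnancy was tested directly. This contrast does not test whether KO lies below WT in pregnancy. The P0 difference exceeded the mean of the 4 pregnancy-day differences by 2.25 ± 0.31 for Egr2 (limma adjusted p = 5.55e-05) and by 1.23 ± 0.25 for Egr1 (0.00357). These were the 2 members called, against 6.18% of all genes (4.62% with a higher value at P0), and both calls held with each array left out in turn and in every other setting. By the F test across all 5 stages the genotype difference varied for 3 of 10 members, Egr2 (limma adjusted p = 0.000567), Jun (0.00621) and Egr1 (0.0132), against 18.0% of all genes. Without the arrays in doubt the F test kept Egr2 (limma adjusted p = 0.0111), while Jun was at 0.0994 and Egr1 at 0.112. Without the array labelled KO P15 replicate 3 the P0 excess was 2.28 for Egr2 and 1.24 for Egr1, both called, and the F test kept all 3 (limma adjusted p = 0.000701 for Egr2, 0.0151 for Jun and 0.0174 for Egr1). The contrast with pregnancy uses the same P0 arrays as the P0 comparison and is not independent of it. It was also chosen because earlier results of these data had singled out Egr2 at P0. Its p-value for Egr2 is therefore not that of an unselected test. Some cell markers moved the same way in it, with 10 of 10 fibroblast markers positive and 6 of them called (median 0.61). Macrophage (10 of 10, median 0.73) and epithelial markers (13 of 13, 0.56) were positive too, with none called. Other lists mostly went the other way, with none called. Positive were 0 of 11 skeletal muscle (median -2.34), 1 of 8 white adipocyte (-0.11) and 2 of 8 endothelial markers (-0.05). Of B and T lymphocyte markers 1 of 8 (-0.77) and 0 of 9 (-0.71) were positive. The excess was 2.21 for Egr2 and 1.05 for Egr1 with the epithelial score as covariate, and 2.23 and 1.17 with the macrophage score, all called by limma. The part of fibroblasts in it was not tested.

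Through pregnancy the EGR genes peaked at P3 in WT glands. Against P0, Egr2 rose there by 2.47 ± 0.29, which is 5.55-fold (limma adjusted p = 3.64e-06), Egr1 by 1.52 ± 0.24 or 2.86-fold (0.000152), and Egr3 by 0.82 ± 0.15 or 1.77-fold (0.000593). Egr3 read 7.69, 8.63 and 8.33 in WT arrays at P3, all above its 4 WT arrays at P0. Thus 3 of 10 members were called, all higher, against 18.1% of all genes called and 11.6% called higher. Without the arrays in doubt the Egr2 rise was 2.32 (limma adjusted p = 8.88e-05). The Egr3 call was lost in a fit of WT P0 and WT P3 alone (0.82, limma adjusted p = 0.0775). Endothelial markers were lower at the same stage, 7 of 8 of them called (median -0.77), and their part was not tested.

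In KO glands Egr2 differed between P3 and P0 by 0.23 ± 0.29 (limma adjusted p = 0.654) and Egr1 by 0.33 ± 0.24 (0.384), neither called. After P3 both were lower than at P0 in KO glands. Egr2 fell at P7 (-1.66 ± 0.26, limma adjusted p = 4.39e-05), at P10 (-1.25 ± 0.29, 0.00164) and at P15 (-2.37 ± 0.27, 3.00e-08). Egr1 fell at P10 (-0.63 ± 0.24, limma adjusted p = 0.0485) and at P15 (-1.17 ± 0.22, 8.66e-05). In WT glands Egr2 was back near its P0 mean at P15 (0.14 ± 0.27, limma adjusted p = 0.684). The 4 contrasts of a genotype share its P0 arrays.

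KO P10 replicates 2 and 3 are lymphocyte-rich, and all 8 B and all 9 T lymphocyte markers were called higher in KO at P10 than at P0. Without the arrays in doubt, with 1 KO P10 array left, Egr2 differed from P0 by -1.39 (limma adjusted p = 0.0888), Fos by -0.94 (0.0531) and Egr1 by -0.68 (0.403), so that these 3 differences stayed about as large while no member was called. Egr1 at P10 kept its call in 16 of the 37 leave-one-out fits. Without the array labelled KO P15 replicate 3 the P15 differences from P0 were -2.50 for Egr2 (limma adjusted p = 6.55e-08) and -1.18 for Egr1 (0.000269).

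Fos, whose protein pairs with JUN proteins and which is the classical immediate early gene, declined in both genotypes. At P0 it read 6.79, 8.01, 7.42 and 7.43 in WT and 7.46, 7.83, 7.62 and 7.60 in KO arrays. At P10 it read 6.43, 6.67 and 6.64 in WT and 6.69, 6.74 and 6.53 in KO. The WT arrays at P10 lay below all WT arrays at P0, with a difference of -0.83 ± 0.17 (limma adjusted p = 0.00125), and the KO arrays likewise, with -0.98 ± 0.17 (6.67e-05). Fos also fell against P0 in WT at P7 (-0.46 ± 0.16, limma adjusted p = 0.0277) and P15 (-0.62 ± 0.16, 0.00138) and in KO at P3 (-0.57 ± 0.17, 0.017), P7 (-0.67 ± 0.15, 0.00189) and P15 (-0.64 ± 0.16, 0.00129). With 7 of its 8 contrasts against P0 called, it is the member called most often, the exception being WT at P3 (-0.14 ± 0.17, limma adjusted p = 0.585).

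The WT decline of Fos at P7 depended on single arrays. Without WT P0 replicate 2, its highest P0 array, it was -0.26 (limma adjusted p = 0.145). It was also not called without WT P0 replicate 3 (-0.46, limma adjusted p = 0.0543) or 4 (-0.45, 0.0571), or without WT P7 replicate 1 (-0.41, 0.0822), 2 (-0.44, 0.0625) or 4 (-0.46, 0.0508). With the epithelial score as covariate the WT difference at P15 was -1.003 (limma adjusted p = 6.72e-06), and in a fit of WT P0 and WT P15 alone it was not called (0.0518). Without the array labelled KO P15 replicate 3 the KO difference at P15 was -0.59 (limma adjusted p = 0.00623). In KO glands the P3 call was lost without KO P0 replicate 2 (-0.50, limma adjusted p = 0.0586) or KO P3 replicate 1 (-0.55, 0.0631). Fosb, another gene of the FOS family, gave no call in any contrast, with group means from 6.24 to 6.57.

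Jun fell late in pregnancy in both genotypes. In WT its 4 P15 arrays (8.43 to 8.76) lay below its 4 P0 arrays (9.78, 9.65, 10.08 and 9.65), a 2.37-fold fall (-1.24 ± 0.13, limma adjusted p = 7.93e-09). In KO the P0 arrays read 10.08, 10.25, 10.03 and 9.57, and the difference at P15 was -0.67 ± 0.13 (limma adjusted p = 0.000136), or -0.81 without the array labelled KO P15 replicate 3 (7.20e-06). With the macrophage score as covariate this KO difference was -0.38 (limma adjusted p = 0.153, not called). Markers of several other cell types fell between P0 and P15 as well, while more epithelial markers were called higher than lower. In WT 8 of 8 white adipocyte markers (median -1.25), 7 of 8 endothelial (-0.66), 4 of 10 macrophage (-0.46) and 4 of 10 fibroblast markers (-0.28) were called lower. In KO it was 7 of 8 white adipocyte (median -0.76), 4 of 8 endothelial (-0.43), 9 of 10 macrophage (-1.19) and 10 of 10 fibroblast markers (-1.24). Of all 16865 tested genes 4597 were called lower in WT (27.3%) and 3675 in KO, where 41.3% were called either way. Of 13 epithelial markers 8 were called higher and 2 lower in WT (median 0.74), and 5 and 2 in KO (0.34). The part of adipocytes, endothelium and fibroblasts in the P15 differences of the members was not tested. Jun also fell in KO at P10 (-0.58 ± 0.14, limma adjusted p = 0.00281), and without the arrays in doubt, with 1 KO P10 array left, it differed by -0.38 (0.311).

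Junb fell in WT at P15 (-0.30 ± 0.11, limma adjusted p = 0.0215). It was no longer called without WT P0 replicate 2 (-0.21, limma adjusted p = 0.112) or WT P15 replicate 4 (-0.27, 0.0639). With a further quantile normalisation the difference was -0.49 (limma adjusted p = 0.000163), and with each array centred on its median it was also -0.49 (0.000203). With the epithelial score as covariate it was -0.45 (limma adjusted p = 0.00540). Ier2 rose in KO at P15 by 0.33 ± 0.12 (limma adjusted p = 0.0248), or by 0.34 without the array labelled KO P15 replicate 3 (0.0375). The Ier2 call was lost without KO P0 replicate 1 (0.26, limma adjusted p = 0.112), KO P0 replicate 3 (0.28, 0.0871) or KO P15 replicate 4 (0.30, 0.0745). It was also lost with a further quantile normalisation (0.21, limma adjusted p = 0.155), with each array centred on its median (0.20, 0.186) and with the macrophage score as covariate (0.04, 0.896).

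In WT glands 1 member was called at P7 and 1 at P10, each time Fos, and 3 at P15 (Fos, Jun and Junb), against 29.3%, 21.4% and 48.8% of all genes. All of these were lower than at P0, as were 13.8%, 9.71% and 27.3% of all genes by the same rule. In KO glands 1, 2, 4 and 5 members were called from P3 to P15, against 18.8%, 16.2%, 30.7% and 41.3%. At P3, P7 and P10 the called members were lower than at P0, as were 11%, 8.34% and 16.3% of all genes by the same rule. Of the 10 members 7 had at least 1 call and 3 had none, namely Fosb, Atf3 and Nr4a1. Atf3, a repressor induced by stress, had group means from 7.49 to 7.97, and Nr4a1, also called Nur77, from 7.45 to 8.01.

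**Figure D3:**
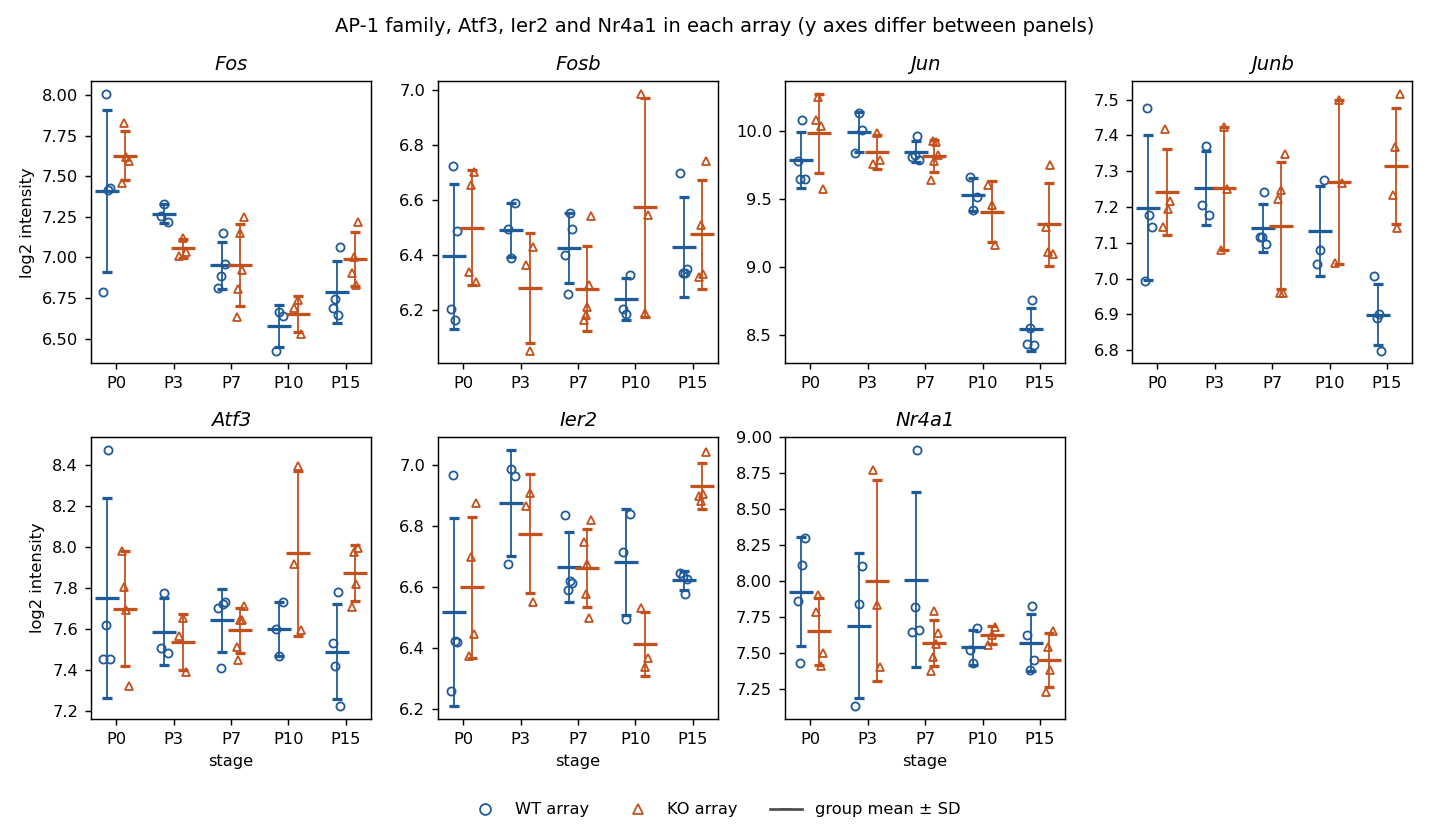
log2 intensity of the AP-1 members Fos, Fosb, Jun and Junb and of Atf3, Ier2 and Nr4a1 in each array (y, with a scale of its own in each panel) by stage (x), with circles for WT and triangles for KO arrays, and bars for the group mean ± SD. Fos is highest at P0 in both genotypes, and at P15 the WT arrays of Jun (8.43 to 8.76) lie below all of its KO arrays (9.10 to 9.75).

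The range of Egr2 over the 10 groups was the widest of the 10 members. Its group means spanned 3.26 on the log2 scale, or 9.57-fold, against 1.71 for Egr1, 1.45 for Jun, 1.05 for Fos, 0.92 for Egr3 and 0.33 to 0.56 for Nr4a1, Ier2, Atf3, Junb and Fosb. The spread of Egr2 between arrays of a group (SD 0.40) was also the largest, followed by Nr4a1 at 0.36 and Egr1 at 0.33. Probe sets can respond with different slopes, so spans compare readings and not amounts of RNA.

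Ordered by mean, Egr2 was at 10.29 ± 0.42 (SD, n = 3) in WT P3, 9.63 ± 0.66 (n = 3) in KO P3, 9.40 ± 0.58 (n = 4) in KO P0, 8.61 ± 0.17 (n = 3) in WT P10 and 8.37 ± 0.37 (n = 4) in WT P7. Then followed KO P10 at 8.15 ± 0.13 (n = 3), WT P15 at 7.96 ± 0.36 (n = 4), WT P0 at 7.82 ± 0.47 (n = 4), KO P7 at 7.74 ± 0.14 (n = 5) and KO P15 at 7.03 ± 0.39 (n = 4). Of the 9 neighbours in this order 8 overlapped in their arrays. The exception was the last step, where all KO P15 arrays lay below all KO P7 arrays. KO glands at P0 thus stood next to both P3 groups, and WT glands at P0 near the bottom.

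Set against the mean of the other 9 members in the same array, Egr2 differed between genotypes in the same pattern. This measure read 0.29, 0.16, 0.71 and -0.22 in WT and 1.49, 1.70, 1.07 and 2.40 in KO arrays at P0, without overlap, and the KO mean was higher by 1.43. In pregnancy it was lower in KO, with differences of -0.56, -0.53, -0.52 and -1.10 from P3 to P15. Leaving out each array in turn gave 1.18 to 1.63 at P0 and -1.23 to -0.88 at P15, and without the arrays in doubt the P0 value was 1.27. No p is given, because Egr2 was set apart with its values known, and the level of 1 probe set against another has no meaning by itself.

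Averaged over the other 9 members the genotype difference was smaller. It was 0.16, -0.10, -0.09, 0.07 and 0.17 from P0 to P15, with 7, 2, 2, 6 and 6 of the 9 higher in KO. At P0 the median over the 9 was 0.10, with Egr1 highest at 0.97. At P15 Egr2 (-0.93) was the 43rd lowest of all 16865 genes, while the mean of the other members was positive.

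**Figure D4:**
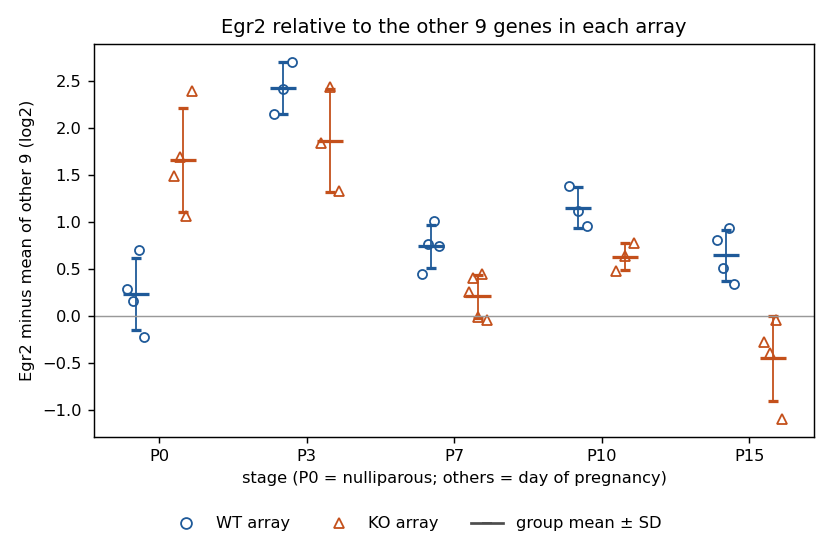
log2 intensity of Egr2 minus the mean of the other 9 members in the same array (y) by stage (x), with circles for WT and triangles for KO arrays, and bars for the group mean ± SD. KO lies above WT at P0 (1.07 to 2.40 against -0.22 to 0.71) and below it at P7 (means 0.21 and 0.75), P10 (0.64 and 1.16) and P15 (-0.45 and 0.65).

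From array to array within a group, Egr2 varied with Egr1. Over the 37 arrays the deviations of both genes from their group means correlated with Pearson r = 0.71 (permutation p within groups = 0.00021, adjusted over 9 pairs 0.0019) and Spearman rho = 0.71 (permutation p = 0.00019, adjusted 0.0017). Leaving out KO P3 replicate 3 and KO P0 replicate 3, the 2 arrays in which Egr2 lay farthest from the median, gave r = 0.70 (n = 35), and leaving out the arrays in doubt gave r = 0.75 (n = 30). None of the other 8 members passed in this family of 9, with r from -0.32 (Fosb) to 0.37 (Nr4a1) and permutation p values adjusted over the family of 0.26 to 0.92. Over all 45 pairs of members r within groups ran from -0.32 to 0.71, with a median of 0.25. Some pairs without Egr2 came near the highest value, such as Egr3 with Nr4a1 (0.69) and Fos with Junb (0.61), and these were not tested. The deviations of arrays share RNA quality and cell content, whose part was not tested.

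**Figure D5:**
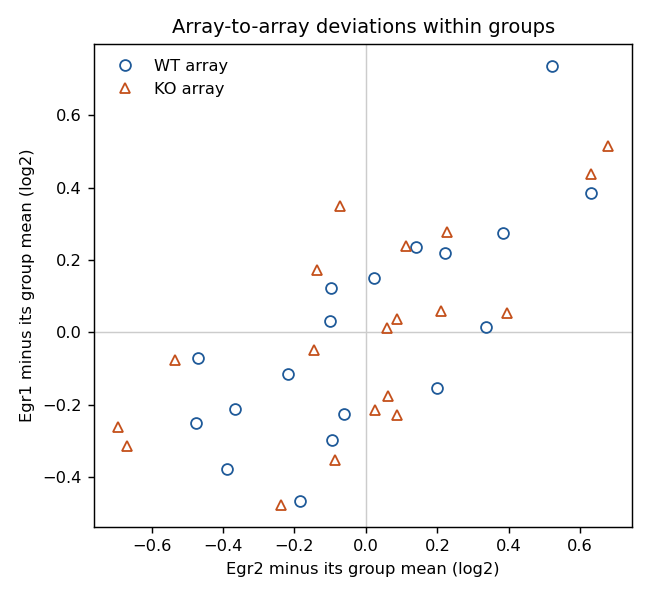
Deviation of Egr1 (y) against that of Egr2 (x) from the mean of its group, both log2, with 1 point per array, circles for WT and triangles for KO. Arrays that are high for Egr2 within their group tend to be high for Egr1 (r = 0.71, n = 37).

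Over the 10 group means Egr1 was also the gene most like Egr2 of all tested genes (r = 0.98), while Egr3 came at rank 153 (r = 0.82), Jun at 2495 (0.52) and Fos at 4305 (0.36). Next after Egr1 were Tnfaip6 (0.98), Hoxa10 (0.95), Umps (0.94), Gcnt4 (0.94), Utp4 (0.94), Pold2 (0.93), Trim9 (0.93) and Rpl7l1 (0.93), leaving out predicted genes. Tnfaip6 encodes a hyaluronan-binding protein of the cumulus matrix, Hoxa10 a homeobox factor of the uterus, and Gcnt4 an enzyme of O-glycan branching. Like Egr2, each of these 8 had its highest mean in WT P3. They were picked for group means like those of Egr2, so a peak in WT P3 and a higher KO mean at P0 follow from the choice. At P0 Tnfaip6 (1.18), Gcnt4 (1.30) and Trim9 (0.70) were called higher in KO, as were 1.27% of all tested genes. The other 5 differed by 0.10 (Rpl7l1) to 0.33 (Hoxa10) and were not called. In all, 29 genes, or 0.172% of those tested, had r above 0.9, and the 10 group means are a description with no test.

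Other genes of the immediate early response were counted in the same fit. At P0 0 of 19 other immediate early transcription factors and 0 of 19 other immediate early genes were called by limma, with 4 and 3 at an unadjusted p below 0.05, where 20.8% of all genes passed. The smallest p values in each list, none of them called, belonged to Myc at 0.67 ± 0.20 (limma adjusted p = 0.0720), Hes1 at 0.47 ± 0.15 (0.105), Phlda1 at 0.60 ± 0.21 (0.121) and Ier5 at 0.40 ± 0.14 (0.127). The medians of these lists were 0.11 and 0.14, against -0.01 over all genes.

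Among 10 feedback inhibitors of ERK signalling, which ERK itself induces, Dusp6 was called at P0. Dusp6, a phosphatase that switches off ERK, was 0.50 ± 0.10 higher in KO (limma adjusted p = 0.0127), and its P0 difference exceeded that of pregnancy by 0.64 (0.00139). It also rose in WT at P3 (0.74), fell in KO at P7 (-0.65) and fell at P15 in WT (-0.28) and in KO (-0.96, or -1.02 without the array labelled KO P15 replicate 3), all called. The WT fall at P15 was -0.46 with each array centred on its median, and its call was lost with the epithelial (-0.30) and the macrophage score (-0.22) as covariates and without single arrays, WT P0 replicate 3 for example (-0.22, limma adjusted p = 0.116). The P0 call was lost without WT P0 replicate 1 (0.44, limma adjusted p = 0.0651), without WT P0 replicate 4 (0.49, 0.0507) and without the arrays in doubt (0.49, 0.0529). Spred1, another ERK inhibitor, was at 0.43 ± 0.12 at P0 (limma adjusted p = 0.0519, not called).

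Of the 60 measured genes in these lists and among the upstream kinases and factors, 1 was called at P0, 11 at P10 and 8 at P15, that is 1.67%, 18.3% and 13.3%, against 1.70%, 17.2% and 11.1% of all genes. At P10 they were Klf2 (0.60), Hes1 (-0.52), Zfp36 (0.81), Gadd45b (0.80), Arc (0.37), Dusp2 (1.10), Spry4 (-0.65), Spry1 (-0.45), Spred2 (-0.30), Mrtfb (-0.57) and Mrtfa (0.55), all called by limma. Without the arrays in doubt, with 1 KO P10 array left, none of the 11 was called, and Gadd45b (-0.19) and Mrtfa (-0.10) changed sign. At P15 they were Gadd45g (1.17), which encodes a stress sensor, Cebpb (0.63), a leucine zipper factor of the mammary epithelium, Irf1 (0.57), Ier3 (0.48), Btg2 (0.48), Creb1 (-0.40), Mapk8 (-0.30), which encodes the JUN kinase JNK1, and Spred2 (-0.28), 8 in all. All 8 kept their calls without the arrays in doubt and without the array labelled KO P15 replicate 3 alone. Irf1, Ier3, Btg2, Spred2 and Mapk8 lost theirs without single P15 arrays, Irf1 for example without KO P15 replicate 2 (0.36, limma adjusted p = 0.130). With each array centred on its median Mapk8 (-0.21, limma adjusted p = 0.0731) and Spred2 (-0.19, 0.147) were not called. In a fit of WT and KO P15 alone Irf1 was not called (0.57, limma adjusted p = 0.0721). By list the P15 counts were 2 of 19, 3 of 19, 1 of 10 and, of the 12 measured upstream kinases and factors, 2, against 11.1% of all genes.

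Nab1 and Nab2 encode corepressors that bind EGR proteins, and neither was called between genotypes, Nab2 being at 0.22 ± 0.09 at P0 (limma adjusted p = 0.192). Nab2, itself a target of EGR factors, rose in WT at P3 by 0.43 ± 0.10 (limma adjusted p = 0.00399) and fell in KO at P15 (-0.49 ± 0.09, 8.95e-05; -0.56 without the array labelled KO P15 replicate 3).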

How the data were processed

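The deposited table holds 1 log2 intensity per probe set and array (34760 probe sets, 37 arrays, values from 2.10 to 13.71), and affy was used per the submitters' processing notes. How background, summarisation and normalisation were handled is not given in these sources. Genes came from the 21640 probe sets with exactly 1 symbol in GEO's platform annotation, taking the highest mean where several shared a symbol. 1321 probe sets with several symbols and 11799 with none were left out. The test took the 16865 genes above 4.96, the 25th percentile over all values, on 3 or more arrays, and 3072 were left out. Symbols of 19918 genes matched RefSeq GRCm38.p6, from which promoters were taken.

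One limma model (version 3.58.1, R 4.3.3) covered the 37 arrays, with a mean for each of the 10 groups, two-sided moderated tests and Benjamini-Hochberg adjustment over all tested genes. The script was tested on simulated data. Egr2 was correlated with the other members on deviations from group means, with 100000 permutations within groups. Replicate numbers were checked as pairs (18 pairs, r from -0.52 to 0.38) and not used as such. No batch is named in the labels, and 3 to 5 arrays per group limit the precision.

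Alternatives were no filter, all probe sets, quantile normalisation, centring, a trended and robust prior, array weights, epithelial and lymphocyte plus muscle scores as covariates, a replicate block, the arrays in doubt left out, 2 groups alone and each array left out. The macrophage covariate and the alternatives for Egr2 minus the other members and for correlations were added after seeing the data. Named were all members, up to 6 called genes per pathway list and contrast (of which examples are given), up to 2 with the smallest p where none was called, and the 8 genes most like Egr2. The members and lists were chosen with earlier results of these data known.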

Additional observations from a re-analysis of the deposited data

Results flagged for a closer look

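The genotype difference varied between stages for 3 members by the F test in limma, Egr2 (adjusted p = 0.000567), Jun (0.00621) and Egr1 (0.0132). In single groups of 4 or 5 arrays 1 array lay far from the others in 9 of the 60 groups examined, where chance flags about 1 in 20. Egr1 was at 9.08 in WT P7 replicate 3, the other 3 arrays lying at 8.05 to 8.13, and in the same array Nr4a1 was at 8.91 (others 7.65 to 7.82) and Junb at 7.24 (others 7.10 to 7.12). Atf3 was at 8.47 in WT P0 replicate 3 (others 7.45 to 7.62) and at 7.41 in WT P7 replicate 2 (others 7.70 to 7.73). Ier2 was at 6.84 in WT P7 replicate 1 (others 6.59 to 6.62) and at 7.04 in KO P15 replicate 4 (others 6.88 to 6.91). Egr3 was at 7.17 in WT P15 replicate 2 (others 7.43 to 7.48), and Fosb at 6.70 in WT P15 replicate 1 (others 6.34 to 6.35). None of the 9 flags fell on Egr2.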

How the results depend on the processing

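Of 30 member calls 22 held in all 37 leave-one-out fits, 14 in every other setting run for their contrast, and 12 in all. No member call changed sign, whereas among the 130 uncalled values 68 did in some setting. For the genotype comparisons, the count of members called at P0 was 2 and became 1 with the epithelial covariate, 1 without the arrays in doubt and 0 with 2 groups alone. At P10 the count of 0 became 1 with quantile normalisation, 1 with centring (both Ier2, -0.40 and -0.41), 1 with the epithelial covariate and 2 with array weights. For the mean over stages 0 became 1 with array weights (Junb). For the F test 3 became 5 with quantile normalisation, 5 with centring, 7 with array weights and 1 without the arrays in doubt. Against P0, the WT count of 1 at P7 became 0 with lymphocyte and muscle covariates, 0 without the arrays in doubt and 0 with 2 groups alone. The WT count of 1 at P10 became 2 with centring, 3 with array weights and 0 with 2 groups alone, and that of 3 at P15 became 1 with 2 groups alone. In KO the count of 1 at P3 became 2 with array weights, 2 with the epithelial covariate, 0 with the macrophage covariate and 0 without the arrays in doubt. That of 4 at P10 became 1 with lymphocyte and muscle covariates, 0 without the arrays in doubt (which leaves 1 KO P10 array) and 2 with 2 groups alone, and that of 5 at P15 became 3 with the macrophage covariate. Counts with 1 array left out ran from 1 to 2 at P0, 1 to 4 at P15, 3 to 4 for the F test, 0 to 1 in WT P7, 1 to 3 in WT P10, 2 to 3 in WT P15, 0 to 2 in KO P3, 2 to 3 in KO P7, 3 to 4 in KO P10 and 4 to 5 in KO P15, and from 3 to 4 in WT P3. They stayed at 0 for P3, P7, P10 and the mean over stages, and at 2 for the P0 difference against pregnancy. Egr2 minus the other members ranged with 1 array left out from 1.18 to 1.63 at P0, -0.84 to -0.29 at P3, -0.63 to -0.44 at P7, -0.62 to -0.40 at P10 and -1.23 to -0.88 at P15. Among pathway genes, Gadd45b at P10 (0.80) turned to -0.22 with lymphocyte and muscle covariates and -0.19 without the arrays in doubt, and Mrtfa (0.55) to -0.10 in both. With the replicate number as a block 2 members were called at P0, 3 at P15 and 3 by the F test, as without it, and 3 in place of 2 in KO P7. The deviations of same-numbered arrays had r from -0.52 to 0.38 over 18 pairs, 9 of them above 0.1. Whether the replicate numbers pair samples was not tested. Over all genes the counts moved as well. At P0 286 ran from 69 to 1811 with 1 array left out and from 2 to 1103 in other settings. In the same order, 2905 at P10 ran from 841 to 4872 and from 0 to 7340. The 1873 at P15 ran from 1294 to 2166 and from 1753 to 4081, and 3042 by the F test from 1540 to 4939 and from 492 to 7877. The causes were not tested. Limits are few arrays per group, an unstated normalisation, whole glands of mixed cell content, gene names that can be old and 1 array whose Ptpn1 level goes against its label.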
